A study of Mus musculus with 6 samples.

Results

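The regions described here are the methylation-capture peaks that lay at the ends of protein-coding genes. They were taken from a single list of 84111 peaks by position alone: a peak belonged to the set when its midpoint was within 1 kb of either end of a protein-coding gene of 500 kb or shorter. This left 3632 peaks, 4.32% of the list. They lay at the ends of 3416 (21.9%) of the 15599 genes of that length on the sequence the list covers (chromosomes 1 to 5 and 10 to 19 and part of chromosome 6).

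In mammalian DNA, cytosines followed by guanine (CpG sites) are mostly methylated, and Dnmt1 is the enzyme that copies this methylation onto the new strand after replication. CpG-dense stretches around transcription start sites, known as CpG islands, are the usual exception and stay free of methylation. Promoters of many germline genes and one parental copy of imprinted control regions are, however, methylated in body cells. The transcribed part of active genes and the region in front of the transcript's end are, in contrast, usually methylated.

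Methylated DNA was enriched with MBD2, a protein that binds methylated CpG, and sequenced (MBD-seq) from primary chondrocytes, the cells of cartilage, of knee articular cartilage from mice at postnatal day 3 to 5. Labels give 3 control samples, whose genotype is Dnmt1 flox, and 3 cKO (conditional knockout) samples, whose genotype is Prx1-Cre;Dnmt1 flox/flox. The floxed Dnmt1 allele is thus named for both groups, and Prx1-Cre, a recombinase active in early limb mesenchyme, for the cKO group. All cells were cultured before DNA was taken. The submitters' name for the list calls its peaks regions of Dnmt1-mediated DNA methylation. Whether a peak reflects methylation level or dependence on Dnmt1 cannot be told from the list. It was called on 3 merged datasets and holds no value for any sample. No spread between mice, no comparison of control with cKO and no depth per sample can therefore be given. All values below describe this list, and shares of genes carry intervals for counting error only.

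Promoter sequences of genes with and without a start-end peak are shown for their CG content; most start-end peaks did not overlap this window, as counted below. Each sequence below runs from 250 bases before to 50 bases after a transcription start, in the direction of transcription (RefSeq, GRCm38.p6), with every CG in capitals. The first 2 are shown for the highest peak folds among promoters wholly inside a peak. Both belong to germ cell genes: Tex19.1, which restrains transposons (plus strand, chr11:121145893-121146192), and Tex14, needed for the bridges between germ cells (plus strand, chr11:87404815-87405114).
Tex19.1: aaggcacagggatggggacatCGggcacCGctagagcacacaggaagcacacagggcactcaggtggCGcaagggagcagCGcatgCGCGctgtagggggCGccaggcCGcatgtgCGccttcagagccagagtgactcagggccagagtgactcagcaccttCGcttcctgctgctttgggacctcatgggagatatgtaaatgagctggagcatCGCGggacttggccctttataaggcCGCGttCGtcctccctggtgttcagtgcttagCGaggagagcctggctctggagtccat
Tex14: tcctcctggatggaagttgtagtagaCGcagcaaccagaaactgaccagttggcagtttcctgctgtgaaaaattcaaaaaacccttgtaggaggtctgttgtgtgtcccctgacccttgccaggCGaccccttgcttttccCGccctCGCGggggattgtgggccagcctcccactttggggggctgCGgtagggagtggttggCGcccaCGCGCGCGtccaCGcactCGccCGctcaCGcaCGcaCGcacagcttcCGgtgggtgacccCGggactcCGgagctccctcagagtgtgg
The next 2 are the keratin promoters with most bases inside a peak, 240 bases for Krt27 (minus strand, chr11:99351069-99351368) and 294 for Krt72 (minus strand, chr15:101786471-101786770), both keratins of the hair follicle's inner root sheath.
Krt27: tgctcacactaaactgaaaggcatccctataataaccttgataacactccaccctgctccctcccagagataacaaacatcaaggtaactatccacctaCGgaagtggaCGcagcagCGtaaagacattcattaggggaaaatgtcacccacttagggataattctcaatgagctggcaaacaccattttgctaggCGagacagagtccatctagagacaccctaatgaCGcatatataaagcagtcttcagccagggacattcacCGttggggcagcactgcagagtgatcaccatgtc
Krt72: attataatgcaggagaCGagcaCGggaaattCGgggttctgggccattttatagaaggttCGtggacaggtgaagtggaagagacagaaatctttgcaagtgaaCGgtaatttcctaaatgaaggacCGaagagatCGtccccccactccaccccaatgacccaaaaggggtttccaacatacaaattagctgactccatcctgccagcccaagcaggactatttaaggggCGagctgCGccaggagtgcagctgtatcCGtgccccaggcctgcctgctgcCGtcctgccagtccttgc
The last pair contrasts CG-rich promoters. Igf2r, an imprinted gene for the receptor that clears the growth factor Igf2, had most CG among promoters inside a peak (minus strand, chr17:12769657-12769956). Col11a2, a collagen of cartilage, had most CG among the chondrocyte genes with no gene-end peak whose promoter sequence was counted (plus strand, chr17:34038888-34039187).
Igf2r: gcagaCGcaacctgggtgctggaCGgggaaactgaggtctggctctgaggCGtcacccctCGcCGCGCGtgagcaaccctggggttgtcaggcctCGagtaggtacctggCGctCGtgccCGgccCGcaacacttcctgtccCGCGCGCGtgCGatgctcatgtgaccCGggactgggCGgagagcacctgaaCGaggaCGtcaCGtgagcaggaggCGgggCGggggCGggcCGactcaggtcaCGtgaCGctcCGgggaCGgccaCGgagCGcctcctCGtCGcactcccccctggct
Col11a2: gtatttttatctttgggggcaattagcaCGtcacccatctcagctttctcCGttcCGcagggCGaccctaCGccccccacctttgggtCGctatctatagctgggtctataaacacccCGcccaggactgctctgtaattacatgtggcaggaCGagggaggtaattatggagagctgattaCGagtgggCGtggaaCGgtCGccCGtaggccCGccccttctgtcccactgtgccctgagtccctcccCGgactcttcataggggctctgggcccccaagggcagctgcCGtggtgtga
CG numbered 16 in the Tex19.1 promoter, 20 in Tex14, 6 in Krt27, 11 in Krt72, 34 in Igf2r and 16 in Col11a2. Tex19.1 and Col11a2 thus held the same number of CG, and a peak covered the one and not the other. The peak over Tex14 had a fold enrichment of 47.9, that over Krt27 35.5 and that over Krt72 19.7, as deposited by the authors' peak caller.

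Peaks were scarcest just before the start of genes and most frequent just before the transcript's end. The strand was known for 12410 of the 15599 genes. The start end is the gene's outer boundary on the side where transcription begins, and the far end is that where the transcript ends. In 1237 of the genes of known strand all listed promoters lay over 1 kb inside the start end. A peak lay within 1 kb of the start end in 840 genes (6.77%). The far end had one within 1 kb in 2105 (17.0%), 2.51 times as many genes. Both ends were within reach of a peak in 268 genes, 162 with more than 1 peak between the ends and 106 with a single one. In some of the 162, such as Asprv1, the far-end peak is also a start-end peak. The start alone was marked in 572 genes and the far end alone in 1837. These 162 are 19.3% of the genes with a start-end peak. Among genes without a start-end peak, 15.9% had a far-end peak. Counting single peaks that reach both ends, the share of start-end genes with a far-end peak was 31.9%. Under the 10 other ways of choosing peaks the far end led by 1.34 to 2.78 times, and the lowest ratio came from the peaks above the lowest background, defined below.

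The position of peaks within these windows was uneven. Counted in steps of 500 bp, the stretch just before the start was the emptiest of the 10 kb on either side, with 9.67 peak midpoints per 1000 genes. The first 500 bp inside the gene held 30.5 per 1000, above the 18.7 of the next 500 bp, and the mean 5 to 10 kb into the gene was 37.4. At the far end the count climbed towards the end of the transcript, to 77.1 per 1000 genes between 1000 and 500 bp before it, then fell off to 56.7 in the last 500 bp and 24.2 in the first 500 bp beyond. Peaks were therefore more often inside than outside the gene at both ends, in 67.7% of 903 placements at start ends and 72.6% of 2290 at far ends. A peak that serves 2 genes is placed more than 1 time in these counts. Over the whole 1 kb windows the mean per step was 18.2 at the start end and 46.1 at the far end. At 5 to 10 kb from the start the means were 30.9 before and 37.4 after it. At the same distance from the far end they were 43.2 and 37.7. The far-end window was thus closer to its surroundings than the start-end window, which lay below its own.

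**Figure D1:**
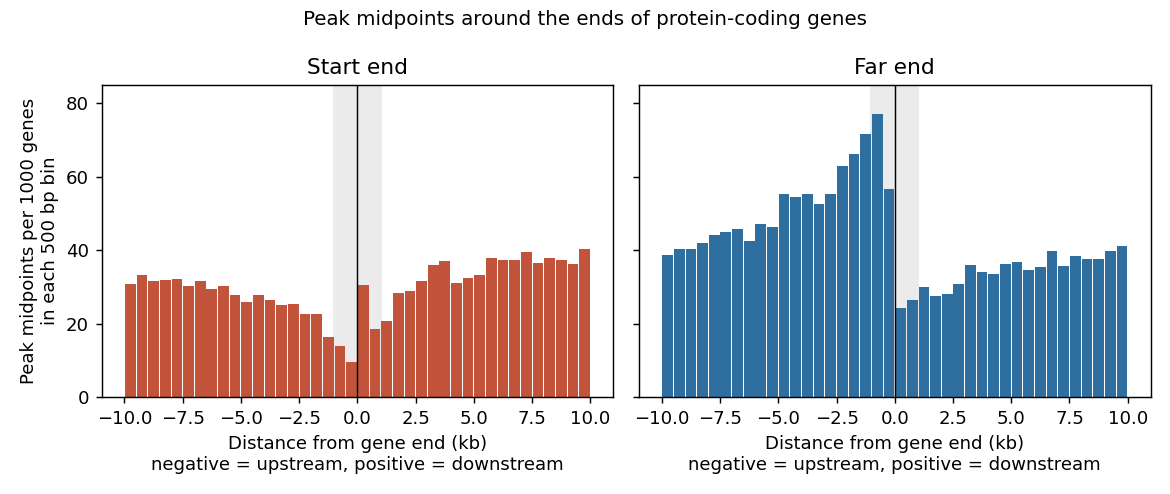
Peak midpoints per 1000 genes of known strand (vertical axis) in 500 bp bins by distance from the start end (left) and the far end (right) in kb, with the 1 kb windows shaded. The count drops to 9.67 just before the start and peaks at 77.1 shortly before the far end.

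Start-end peaks were most frequent at promoters of middling CpG content. The CG dinucleotides were counted in the promoter sequence (300 bases, any position; the motif CG reads the same on both strands, and 95.5% of promoters held at least 1) for 11173 genes whose promoter lies at the start end. With 7 to 10 CG, 17.8% of genes had a start-end peak (95% Wilson interval 15.5% to 20.3%). With 0 or 1 CG the share was 2.98% (2.16% to 4.09%), and with 21 or more it was 2.35% (1.93% to 2.86%). The intervals of these outer classes lie far below that of the middle one. At the far end of the same genes the share grew from 5.54% at 0 or 1 CG to 19.7% at 7 to 10 CG and was 19.23% with 21 or more. The median promoter with a start-end peak held 8 CG, against 15 over all promoters and 19 in genes with a far-end peak only. Of the 743 start-end genes counted here, 327 had a peak that overlapped the promoter sequence itself, and in 81 a peak covered all of it.

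**Figure D2:**
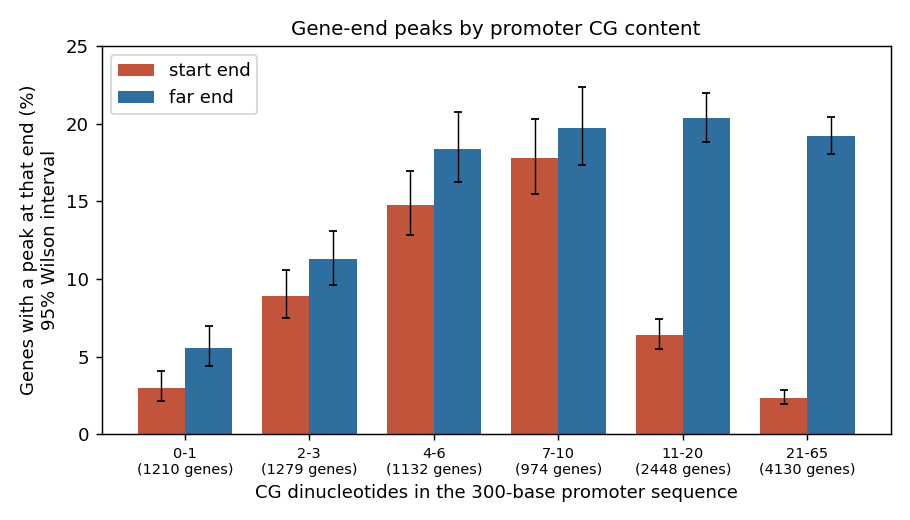
Share of genes with a peak at the start end or the far end (vertical axis, percent, with 95% Wilson intervals) by the number of CG in the promoter sequence (horizontal axis). Start-end peaks are most frequent at 7 to 10 CG (17.8%) and rare at 21 or more (2.35%), while far-end peaks stand at 19.7% and 19.23% in the same classes.

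The gene-end peaks had a median fold of 14.5 (quartiles 9.09 and 24.1) and a median width of 412.5 bp, against 13.2 and 415 bp for the other 80479 peaks of the list. These medians differ little beside the spread of each set. Pileup, the number of reads stacked under a peak, and the background it was compared with were recovered from the fold and p-value. Most peaks had one shared lowest background of 6.37 reads, which was taken to stand for the genome-wide level. A higher one means that the caller's background was raised locally. The list does not say which samples were merged or which formed the background. A raised background therefore cannot be assigned to control or cKO samples, nor read as the plain local level of the merged ones. The lowest background was found for 86.6% of gene-end peaks and 74.5% of the others. At far ends it was 89.5% of 2150 peaks (95% Wilson interval 88.1% to 90.7%), at start ends 79.98% of 879 (77.2% to 82.5%). Median pileups were 120 reads at far ends and 124 at start ends. Start-end peaks inside the gene were at the lowest background in 76.0% of cases, and those outside it in 88.0%.

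The 5 highest folds, 102.5, 102.2, 101.6, 94.6 and 89.7, lay at Gm40369, Gm40363, Gm40367 and Gm36327, neighbouring predicted genes of chromosome 6, over backgrounds of 17.5 to 20.8 reads. Next came H2-Q7, a class Ib histocompatibility gene, with a fold of 70.1 (516 reads) inside its start at chr17:35439741-35440414. 3110040M04Rik had 57.5 at its start. Pdzd7, a scaffold protein of hair cells, had 56.0 beyond its far end, and Trpm8, the cold-sensing channel, 55.1 inside its start. Cdc34, a ubiquitin-conjugating enzyme, had 53.4 at its far end. All of H2-Q7, Pdzd7, Trpm8 and Cdc34 were at the lowest background.

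The 5 lowest folds were found at 4 genes with raised backgrounds, and their pileups were among the larger ones. Fam50b had folds of 1.71 and 1.80 at its far end, with 401 and 397 reads over backgrounds of 234 and 220. Dazl, an RNA-binding protein of germ cells, had 1.75 inside its start (368 reads over 210). Rpl10l, a ribosomal protein gene of the testis, had 1.75 at its start (362 over 206). D1Pas1, a DEAD-box gene of the testis, had 1.83 (397 over 217). The low folds of these 4 genes thus stood beside high pileups, since the median gene-end peak had 120 reads.

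Several gene-end peaks were carried by 453 genes (2.9%), 399 with 2 peaks, 47 with 3 and 7 with 4. In 240 of them all peaks were at one end and in 213 they were spread over both. Merging peaks less than 500 bp apart lowered the number of genes with several peaks to 258. The 7 genes with 4 peaks were Gm40364, Gm40367, Gm36327 and Gm40365 in the chromosome 6 array, Gm40595, Pnpla1 and Nnat. Neighbours in the array share peaks, so their counts are not independent. Both right-end peaks of Gm40365 are the start-end peaks of Gm36327, and a far-end peak of Gm36327 is a start-end peak of Gm40364. Pnpla1, a lipid enzyme of the skin barrier, had folds of 10.3 and 31.6 around its start and 14.8 and 6.24 around its far end, all at the lowest background. Nnat, an imprinted gene, had 5.30, 2.21 and 2.28 around its start and 8.97 inside its far end, all above it. The 4 peaks of the predicted gene Gm40595 on chromosome 10 had folds of 4.16, 7.62, 4.82 and 16.8, again all above the lowest background.

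Of the 47 genes with 3 peaks, those with the highest folds were Usp30, given with the single ends, and the following. Cebpe, a transcription factor of granulocytes, had folds of 9.09 and 35.7 at its left end and 41.0 at its right end; it is 1812 bp long and its strand was not known. Elane, neutrophil elastase, had 15.7 inside its start, 15.5 inside its far end and 38.1 beyond it. Pik3cd, the phosphoinositide kinase subunit of leukocytes, had 10.4 inside its start and 9.90 and 40.2 around its far end. The latter 2 peaks were shared with Clstn1 (calsyntenin), whose far end meets that of Pik3cd and which had a further peak of 10.9 inside its start. Supv3l1, a mitochondrial RNA helicase, had 24.3 inside its start and 41.1 and 13.6 around its far end. Scrib, a cell polarity protein, had 37.6 and 19.0 at its left end and 21.03 beyond its right end. Rpl37rt, a ribosomal protein retrogene, had 38.9 and 6.24 around its start and 26.4 inside its far end.

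No gene end had more than 3 peaks. There were 11 ends with 3 and 298 with 2. As the 11 ends tied at 3 peaks, 5 genes were taken from them by highest fold. These 5 all had their peaks at the far end, and their folds are given along the transcript. Not all of the 11 were far ends, since Nnat had 3 peaks at its start. Usp30, a deubiquitinase of mitochondria, had 6.78, 14.7 and 46.8 in order along the transcript, the strongest beyond its end. Gm46965 had 36.1, 13.2 and 9.22. Vti1a, a vesicle fusion protein, had 12.5, 7.46 and 31.1, all above the lowest background. Casp6, a caspase, had 24.96, 6.78 and 6.51. Smarcd3, a subunit of a chromatin remodeller, had 16.6, 6.92 and 18.04.

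Both ends were covered, with more than 1 peak between them, in 213 genes (1.37%). They were short, with a median length of 8209 bp against 18272 bp for all genes, and 27 were under 2 kb; 32 were 50 kb or longer. A further 126 genes had 1 peak within reach of both ends and are not counted. In the 213 genes the stronger end had a median of 1.71 times the fold of the weaker, and in 83 genes the ratio was at most 1.5. Both ends were at the lowest background in 145 genes and both above it in 27. For the 162 genes of known strand, the far end had the higher fold in 86, the start in 65, and 11 were equal. In these 11 the same peak was the strongest at both ends, with a further peak in reach of either end. Their folds are equal by construction, and they count among the 83 genes above. Median folds were 17.5 at far ends and 13.6 at start ends. Across these 162 genes the folds of the ends were weakly related (Pearson r of log2 folds 0.27, Spearman rho 0.20). The 11 genes with equal folds by construction enter both coefficients. This is a description of one list whose values share depth and caller, and neighbouring genes also share peaks.

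The both-ends genes with the highest weaker fold were led by Gm40363 (101.6 and 102.2), Gm40369 (49.2 and 102.5), Gm36327 (36.8 and 89.7) and Gm40365 (47.3 and 36.8) of the chromosome 6 array. The peak of 36.8 is the same in Gm36327 and Gm40365. Outside it, Arrdc5, an arrestin-like protein, had 35.7 at its start and 48.0 at its far end, and Cebpe 35.7 and 41.0. Gnmt, glycine N-methyltransferase of liver, had 36.4 and 33.9. Tmod4, an actin-capping protein of muscle, had 43.0 and 33.8. Wbp2nl, a sperm protein, had 33.9 and 33.1, and 1700028K03Rik 32.3 and 33.6. Arrdc5, Cebpe, Gnmt, Tmod4, Wbp2nl and 1700028K03Rik were at the lowest background at both ends.

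**Figure D3:**
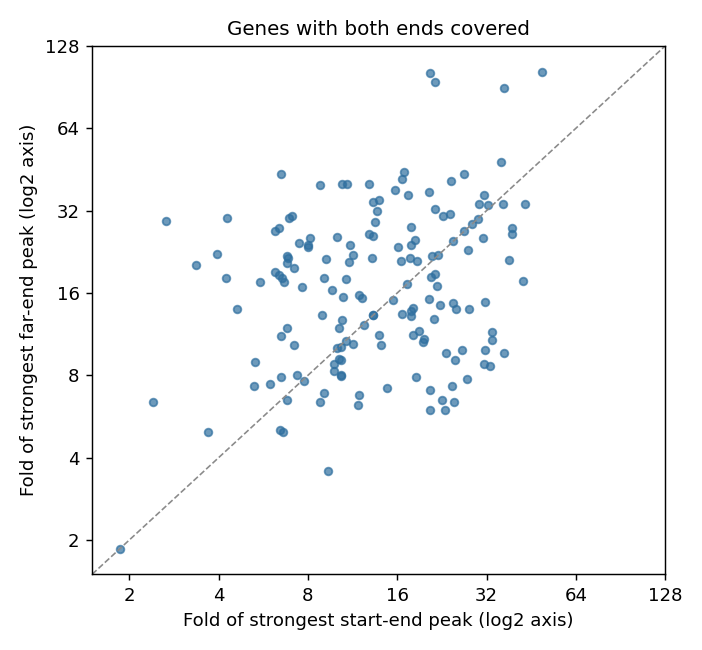
Fold of the strongest start-end peak (horizontal, log2 axis) against that of the strongest far-end peak (vertical, log2 axis) in the 162 both-ends genes of known strand, with the line of equality. Of the points, 86 lie above the line and 65 below, and they scatter widely around it. The 11 on the line are genes whose strongest peak is the same at both ends.

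Gene families differed widely in how many members had a gene-end peak, around the 21.9% of all genes. Families were defined by gene symbol and chosen with earlier results of these data known. Keratins had the highest share among the families of 20 or more genes (33 of 53, 62.3%), followed by the clustered protocadherins (29 of 57, 50.9%), Fox transcription factors (12 of 29, 41.4%) and Hox genes (14 of 39, 35.9%). At the other end were vomeronasal receptors (1 of 151, 0.662%), olfactory receptors (44 of 724, 6.08%), histones (6 of 76, 7.89%) and serpins (7 of 61, 11.5%). Most others lay close to the background: Zfp zinc finger genes had 51 of 243 (20.99%), solute carriers 60 of 297 (20.2%), potassium channels 15 of 69 (21.7%), Ccdc genes 22 of 100 (22.0%) and keratin-associated proteins 11 of 51 (21.6%). Members of a family often lie side by side, so they are not independent, and no test was made of any share.

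**Figure D4:**
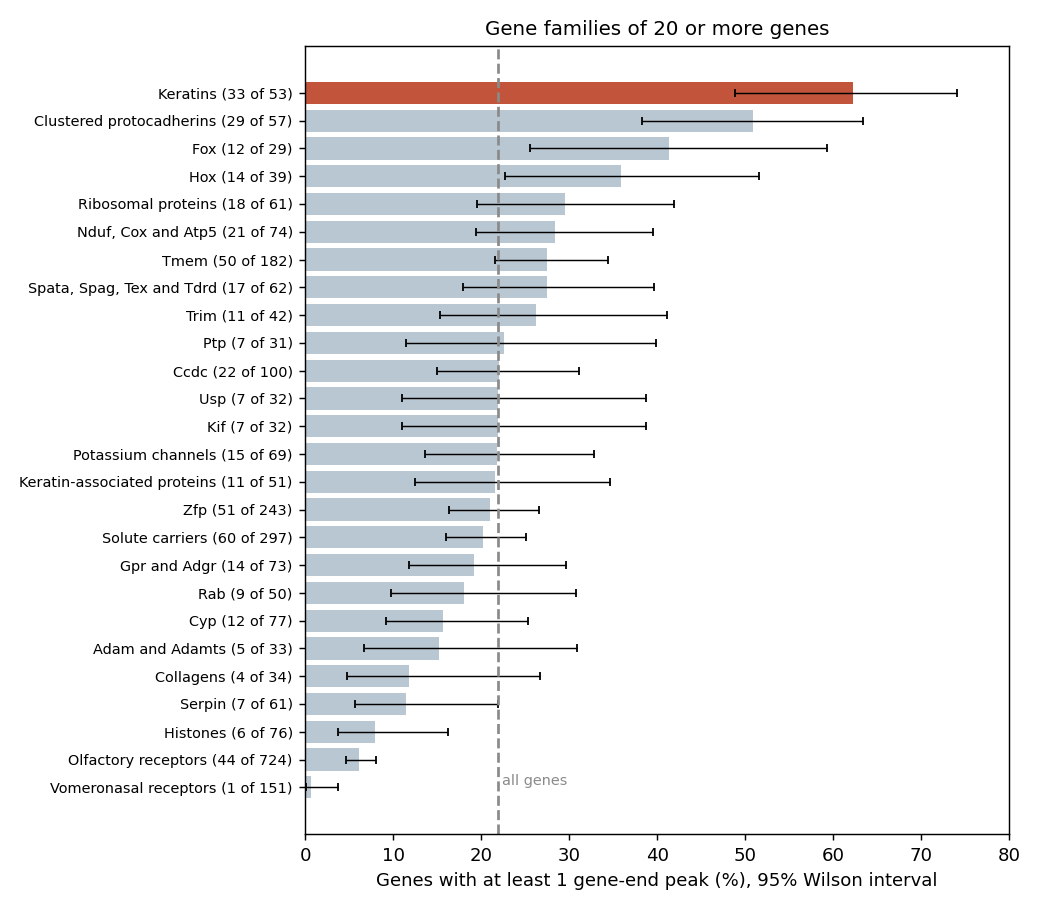
Share of the genes of each family with at least 1 gene-end peak (horizontal axis, percent, 95% Wilson intervals), for families of 20 or more genes, with the dashed line at the 21.9% of all genes. Keratins stand at 62.3% and vomeronasal receptors at 0.662%.

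Keratins, the filament proteins of epithelia, carried their peaks at the start. Of the 36 keratin genes of known strand, 23 (63.9%) had a start-end peak and 5 (13.9%) a far-end peak, against 6.77% and 17.0% of all genes. The start-end peaks numbered 25, 22 of them inside the gene, and 19 placements lay between 100 and 350 bp inside it. In other genes 185 of 878 start-end placements (21.1%) lay in that range. The range was not planned beforehand and brackets most of the keratin placements, so this contrast is a description and not independent support. The 41 keratin peaks had folds from 6.24 to 41.1 (median 19.5), and 37 were at the lowest background. Both clusters took part, with 16 of 27 genes on chromosome 11, which holds the type I (acidic) keratins, and 17 of 26 on chromosome 15, which holds the type II (basic) keratins and the type I gene Krt18. The keratin promoters themselves were not rich in CG, with a median of 5.5 over 32 genes.

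Among the type I genes, Krt25, Krt26, Krt27 and Krt28, neighbouring keratins of the inner root sheath, had start-end folds of 22.8, 24.0, 35.5 and 19.5. Krt23 had 30.7 and Krt13, a keratin of wet mucosa, 28.2. Krt14, the keratin of basal epidermis, had 14.1, and its type II partner Krt5 11.7. Krt12 of the cornea had 9.22 and Krt20 of the gut 22.4. Of the type II genes, Krt82, a hair keratin, had 38.1 and Krt83 41.1, at the right end of a gene of unknown strand. Krt7 and Krt8, of simple epithelia, had 22.7 and 24.4 at their starts. Krt18, the partner of Krt8, had none, and neither had Krt1, Krt2 and Krt10 of the upper epidermis. A run of 6 type I genes next to each other in the order of the keratins, Krt39, Krt40, Krt33a, Krt33b, Krt34 and Krt31, had none either. The keratins with most peaks were Krt28 (3), Krt81 (folds 7.73 and 33.5) and Krt75 (13.4 at its start, and 29.0 at its far end from a peak shared with the start of Krt90). Both ends were covered in 8 keratin genes.

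**Figure D5:**
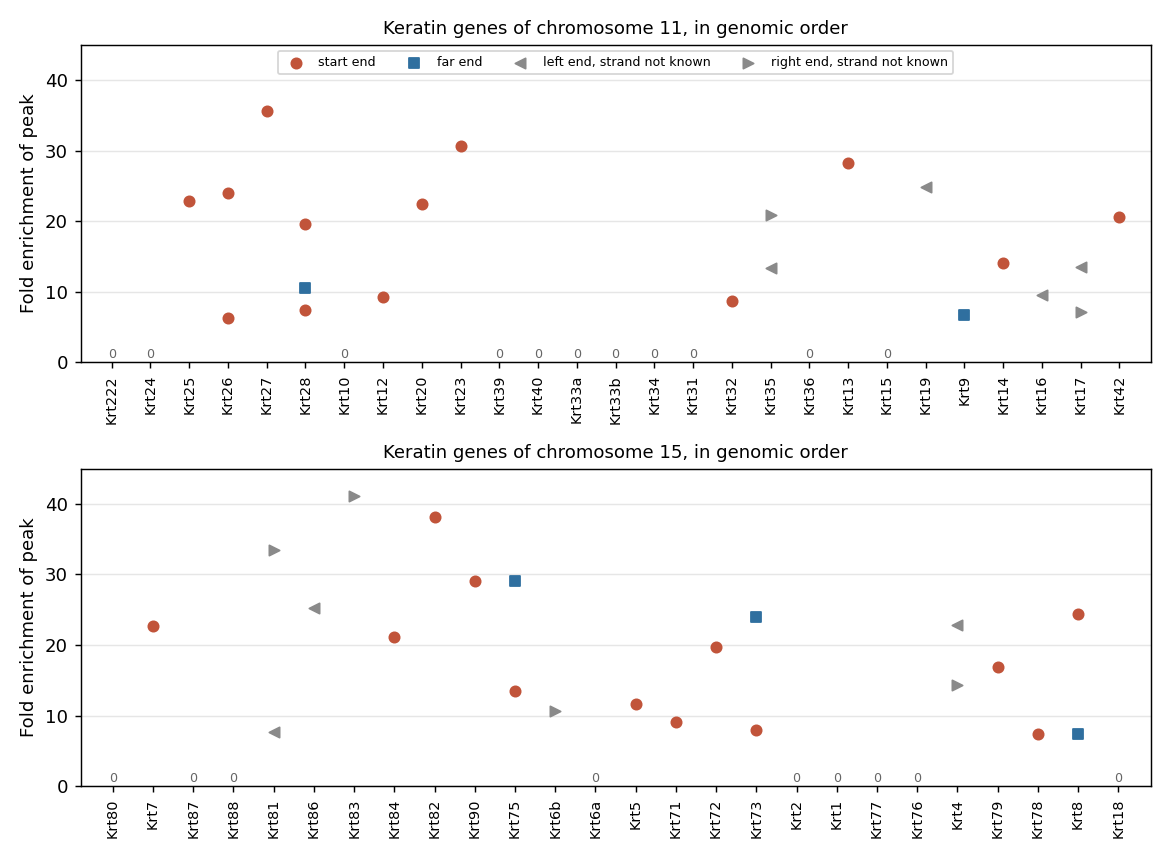
Fold of each gene-end peak (vertical axis) of the keratin genes of chromosome 11 (top) and chromosome 15 (bottom) in genomic order, by gene end; a 0 marks a gene without such a peak. Start-end peaks prevail in both clusters, with Krt27 (35.5) and Krt82 (38.1) highest among them.

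The clustered protocadherins, adhesion proteins of neurons encoded on chromosome 18, had most peaks at left ends. All 12 Pcdha peaks were at left ends between 214 and 764 bp inside the gene; the strand of these genes was not known. Folds ran from 6.51 at Pcdhac1 to 16.3 at Pcdha6. Pcdhga2 had the highest fold of the family (29.9) and Pcdhga8 most peaks, with 5.77, 7.12 and 13.4 at its left end. Pcdhb22 was the member with both ends covered (8.57 and 3.46). Of the 32 peaks, 19 were at the lowest background. The alpha genes share a common right end, as do the gamma genes, and none of their peaks lay there.

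Hox and Fox genes had more far-end than start-end peaks, as did all genes (6.77% with a start-end and 17.0% with a far-end peak). In Hox genes, which set position along body and limb axes, 3 of 22 genes of known strand had a start-end peak and 8 a far-end peak. Hoxa5 had the widest peak of the family, 2655 bp with a fold of 23.4, centred at -887 bp from its start and also within reach of the far end of Hoxa6. Its far end had a further peak of 9.63. Hoxd9 had 6.51 before its start and 7.87 beyond its far end, and Hoxc11 had 9.22 and 7.05 at its right end. In Fox genes 1 of 20 had a start-end peak and 5 a far-end peak; Foxs1 had the highest fold (41.8), then Foxi1 (25.6) and Foxi3 (24.0). None of the 14 Sox, 8 Lhx and 3 Irx genes had a gene-end peak, where 21.9% of all genes had one; these families are small, and the upper 95% Wilson limits were 21.5%, 32.4% and 56.1%. Tbx15 (25.8), a limb and skin factor, was the one of 9 Tbx genes, and Dlx5 (16.4) the one of 6 Dlx genes.

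The receptor families with few peaks had promoters with few CG, a median of 1 in olfactory as in vomeronasal receptors. Keratin-associated proteins also had few CG, a median of 2, but 9 of 46 (19.6%) had a start-end peak, against 6.77% of all genes. The 25 olfactory receptor genes with a start-end peak among the 587 with a promoter sequence had a median of 4. Olfr324 had most peaks, 3, and Olfr283 (28.5), Olfr315 (25.7), Olfr279 (22.0) and Olfr225 (17.2) also had both ends covered; such genes are about as long as the windows are wide. The one vomeronasal receptor was Vmn1r14, with a fold of 36.9. Among histones the paired genes H2ac1 and H2bc1, variants made in testis, shared 2 peaks with folds of up to 13.3, and both had both ends covered.

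Counting by the letters that begin a symbol gave 79 roots of 20 or more genes. After Krt the highest shares were those of Wdr (18 of 48, 37.5%), Polr (8 of 23, 34.8%), then Arhgap and Tex (7 of 21 each, 33.3%), Klhl (8 of 24, 33.3%), Rpl (13 of 40, 32.5%), Pcdhb (7 of 22, 31.8%), Fam (43 of 140, 30.7%), Cdk (7 of 23, 30.4%) and Tbc (7 of 23, 30.4%). In Wdr, the WD-repeat genes, none of 37 genes of known strand had a start-end peak and 14 (37.8%) had a far-end peak, against 6.77% and 17.0% of all genes. No gene-end peak was found in Prl (26 genes, the prolactin family), Mup (24 genes, major urinary proteins), Ugt (22 genes, glucuronosyltransferases) and Ms (21 genes, the Ms4a family). Over all genes the share was 21.9%. For roots of this size the 95% Wilson intervals are wide. Among the roots named after Krt, all intervals included 21.9% except those of Wdr (25.2% to 51.6%) and Fam (23.7% to 38.8%). For the roots without a peak the upper limits ran from 12.9% (Prl) to 15.5% (Ms). All were picked from the extremes of the 79 roots, so their shares are not independent evidence.

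Among lists of genes by function, those of the germline had their peaks at the start. All lists were drawn up with earlier results of these data known. Their shares therefore describe the listed genes and are not independent evidence about the germline or any other class. Of 26 germline genes of known strand, 23 (88.5%) had a start-end peak and 2 a far-end peak, against 6.77% and 17.0% of all genes. Their promoters were CG-rich (median of 19 over 24 genes), and 6.37% of all genes with 11 to 20 CG had a start-end peak. Piwil1, which guards germ cells against transposons, had 34.2 in a peak centred at -17 bp from its start, Hormad2 of meiotic chromosomes 27.1, Smc1b, the meiotic cohesin, 22.9, and Mei1 7.46, all at the lowest background. Sycp1 of the synaptonemal complex had 2.79 and 2.47 over backgrounds of 136 and 142 reads, and Slc25a31, the ADP/ATP carrier of sperm, 3.72 over 116. No gene-end peak was found at Dmc1, Stag3, Spo11, Tdrd6, Tdrkh and Piwil2. In all, 25 of 31 germline genes had 33 peaks, 10 of them at the lowest background.

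Of 27 imprinted genes, 12 had a gene-end peak (44.4%, 95% Wilson interval 27.6% to 62.7%, against 21.9% of all genes), with a median fold of 6.51 over 19 peaks, 7 of them at the lowest background. Gnas had 2.67 and 2.21 at its start over backgrounds of 70.5 and 93.7 reads and 29.3 inside its far end at the lowest background. Plagl1 had 10.3 before its start at the lowest background and 2.86 over it, where 242 reads stood over 83.9. Igf2r had 4.70 over its promoter and 5.25 further inside, both above the lowest background, and 7.33 inside its far end at the lowest. The genes differed in this respect: all 4 peaks of Nnat and the peak of Mcts2 had raised backgrounds, and the start-end peak of Slc22a2 (6.51) had the lowest. Mest, Grb10, Nap1l5 and Zrsr1 were among the 15 without a gene-end peak.

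Of 16 genes of cartilage, 3 had a gene-end peak, close to the 21.9% of all genes, and none of the 12 of known strand had one at the start, where 6.77% of all genes had one, so that a count of 0 among 12 is near the background. Col2a1, the main collagen of cartilage, had 7.60 at its left end (192 reads over a background of 24.4) and 8.19 at its right end. Its strand was not known, so it is not among the 12. With peaks at both ends, its start had a peak whichever the strand. Alpl, the phosphatase of mineralization, had 25.6 and Chad, chondroadherin, 10.2, both inside the far end. Sox9, Runx2, Col10a1, Col9a1, Hapln1 and Matn1 had none. Of 22 genes of glycolysis and respiration, 7 had one (31.8%, 95% Wilson interval 16.4% to 52.7%, which includes the 21.9%), 6 of them at the far end: Hk1 (44.2), Slc16a3, the lactate exporter (39.3), Slc2a1, the glucose transporter (31.2), Sdhb (27.3), Mdh2 (23.7) and Hk2 (8.14). Hif1a, the hypoxia factor, had 16.4 from a peak centred at -904 bp from its start. None of Eno1, Pfkl, Pfkm, Pfkp, Cs and Ogdh had one.

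Neighbouring genes shared 297 of the peaks (8.18%). With the strand known for both genes, 136 of these lay where transcripts converge on each other's far ends, 42 between a start and a far end and 21 between starts. The share of genes with a gene-end peak was highest for genes over 2 and up to 5 kb (26.1%), 17.8% for shorter ones and between 20.4% and 23.4% in all longer classes. By chromosome it ran from 16.5% on chromosome 14 to 32.2% on chromosome 15, where 247 of 767 genes had one. At the edge of the window, 349 peaks lay 900 to 1000 bp from the nearest gene end (median fold 12.9), and 328 lay just outside, at 1000 to 1100 bp (14.6). Admitting genes over 500 kb would have added 19 peaks.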

How the data were processed

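MBD-seq was made from 6 chondrocyte samples (3 control, 3 cKO). Per the submitters' processing notes, fastp, Bowtie2 and MACS2 were used with mm10/GRCm38; their settings are not given in the sources used here. Per the peak names, the caller read a Samtools merge of 3 datasets. The deposited list gives each peak's positions, its fold enrichment (a ratio over the caller's background), its −log10 p and −log10 q, and a score, which in the authors' file equals 10 times the −log10 q with decimals dropped. The lowest −log10 q was 20.0. One incomplete last line, on chromosome 6, was left out.

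Genes, with RefSeq coordinates of GRCm38.p6, were protein-coding, 500 kb or shorter, on covered sequence; 100 genes whose coordinates belong to sequence outside the assembled chromosomes were left out, as were 143 peaks on unplaced contigs. Strand came from the RefSeq promoter table, which matched 79.6% of genes. Pileup and background were solved from fold = (pileup + 1)/(background + 1) and a Poisson p; 99.97% of peaks matched a whole pileup within 1% of its spacing, and 25 did not, none of them at gene ends. This recovery and the placement of peaks were tested on simulated data. No test was made, since no value belongs to a sample; intervals are 95% Wilson. Python 3.11.15, pandas 2.3.3 and scipy 1.17.1 were used.

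The members, families and lists were chosen with earlier results of these data known. The text names the 15 genes with most gene-end peaks, the 10 both-ends genes by weaker fold, the 5 single ends with most peaks, the 10 highest and 5 lowest folds, per family the 3 members with most peaks and those with both ends covered (only for the families described), and genes of the lists. Further keratin, protocadherin and Hox genes, and the promoters printed (none from chromosome 18), were picked after their values were seen. The kinases named Rps6k were left out of the ribosomal proteins.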

Additional observations from a re-analysis of the deposited data

Results flagged for a closer look

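Signal was also present in sequence that no gene comparison used: 143 peaks lay on 15 unplaced contigs, with a median fold of 12.7. They could not be placed relative to gene ends.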

How the results depend on the processing

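No paired analysis was possible because peaks have no values by sample, and no replicate could be left out. The set scales with the window: 500 bp gave 1821 peaks, 1796 genes, 116 genes with several peaks and 72 with both ends covered, and 2 kb gave 7082, 5857, 1713 and 786. A −log10 q of at least 50 gave 239 genes with several peaks, 128 with both ends and a median fold of 19.0; at least 100 gave 1811 peaks, 1839 genes, 122, 69 and 24.1. Any overlap with the window gave 701 genes with several peaks and a median fold of 15.5. Merging peaks within 500 bp gave 258 and 15.1, a median fold equal, after rounding, to the upper limit of the interval given below. Peaks above the lowest background alone gave 488 peaks, 444 genes, 53 with several, 26 with both ends and a median fold of 15.5. Fewer peaks or another window give fewer or more genes by construction. The other values of these 5 results stayed within 1.5 times (counts) or within 14.1 to 15.1, the 95% order-statistic interval of the median fold. In alternatives added after seeing the data, keratin genes with a gene-end peak numbered 23 to 41 in 9 of 10 and 4 with peaks above the lowest background alone. The depth of the samples is unknown, so a gene end without a peak is not shown to lack methylation.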
